A study of Mus musculus with 6 samples.

Results

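The interferon regulatory factor (IRF) genes were followed through Mint-ChIP peak lists of 2 histone marks, H3K4me1 and H3K4me3, in germinal center (GC) B cells. The members were 8 genes taken by name, Irf1, Irf2, Irf3, Irf4, Irf5, Irf7, Irf8 and Irf9, out of 21864 protein-coding genes of the GRCm38 (mm10) annotation. All samples came from wild-type mice. Mint-ChIP barcodes and pools chromatin so that marks can be mapped in few cells, here 50000 sorted spleen cells a library. Mice had received sheep red blood cells, which induce GCs, 8 days earlier. There were 3 libraries for H3K4me1 and 3 for H3K4me3, with no mutant or untreated group, so the data describe a single state and hold no comparison between conditions. The labels read "GC Centrocytes" where the methods of the study have GC B cells. An H3K27Ac antibody appears in the protocol text of the labels, but titles, antibody labels and methods give H3K4me1 or H3K4me3, and the titles were followed here.

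IRF proteins share a DNA-binding domain that reads GAAA repeats, known as interferon-stimulated response elements. IRF3 and IRF7 are switched on by sensors of viral nucleic acid and start the transcription of type I interferon genes, and IRF5 acts downstream of Toll-like receptors. IRF9 carries the signal from the interferon receptor to its target genes, IRF1 activates many of those genes, and IRF2 can occupy the same elements and hold them down. IRF4 and IRF8 are the lymphoid and myeloid members. They bind weakly alone and pair with the ETS factors PU.1 and SPIB or with BATF, IRF8 is abundant in GC B cells, and IRF4 drives class switching and plasma cell formation. H3K4me3 is a mark of active or poised promoters, and H3K4me1, laid down at enhancers largely by KMT2C and KMT2D, is typically found around and away from promoters.

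Sequences are shown first for the promoters of the 3 members with the most H3K4me1 peaks, Irf2, Irf8 and Irf4, and for that of Irf1, which was added after its motif match was seen. Each is the 250 bases before a RefSeq start site on GRCm38, read 5′ to 3′ along the gene, with capitals for letters that match a searched motif.
Irf2 promoter, chr8:46739495-46739744, plus strand: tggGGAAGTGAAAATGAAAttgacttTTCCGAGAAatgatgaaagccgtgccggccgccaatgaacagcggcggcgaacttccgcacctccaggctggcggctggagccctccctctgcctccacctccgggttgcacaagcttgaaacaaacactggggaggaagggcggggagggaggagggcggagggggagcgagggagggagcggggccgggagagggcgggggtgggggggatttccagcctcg
Irf8 promoter, chr8:120736108-120736357, plus strand: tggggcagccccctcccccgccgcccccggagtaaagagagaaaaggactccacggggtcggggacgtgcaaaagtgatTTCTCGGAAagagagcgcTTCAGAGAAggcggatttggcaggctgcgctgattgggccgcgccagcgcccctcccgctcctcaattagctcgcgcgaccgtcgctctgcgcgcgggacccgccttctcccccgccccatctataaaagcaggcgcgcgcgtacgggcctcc
Irf4 promoter, chr13:30748983-30749232, plus strand: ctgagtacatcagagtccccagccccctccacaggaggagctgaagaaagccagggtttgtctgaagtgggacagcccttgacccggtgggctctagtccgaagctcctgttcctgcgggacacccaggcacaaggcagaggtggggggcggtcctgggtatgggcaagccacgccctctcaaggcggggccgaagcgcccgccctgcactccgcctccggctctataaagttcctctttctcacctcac
Irf1 promoter, chr11:53769764-53770013, plus strand: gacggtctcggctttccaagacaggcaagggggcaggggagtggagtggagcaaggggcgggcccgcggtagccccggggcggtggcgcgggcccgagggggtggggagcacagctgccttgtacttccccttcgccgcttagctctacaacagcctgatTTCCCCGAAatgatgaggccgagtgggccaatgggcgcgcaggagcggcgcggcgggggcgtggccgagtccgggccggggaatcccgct
In these lines the capitals mark matches to AANNGAAA (an IRF core), GAAANNGAAA (interferon-stimulated response element core), GGAANNGAAA (ETS-IRF composite element core) or TTCNNNGAA (the gamma-activated site of interferon-gamma target genes), on either strand. Matches to the 3 IRF motifs may overlap one another.

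The search covered 11 RefSeq promoters of the 8 members, each running from 250 bases before to 50 bases after the start. Irf2 alone held the 3 IRF motifs, as a single run of overlapping matches with 2 IRF cores near the far end of the window. Of 32851 promoters of the same length, 23.9% held an IRF core, 3.44% the response element core and 2.72% the composite core. The gamma-activated site was found once in Irf1, once in Irf2 and 2 times in Irf8, against 8.3% of all promoters with at least 1. Irf4 showed no match to any of these letters. The member promoters had a median GC content of 61% and a median of 18 CpG dinucleotides, against 52.7% and 7 over all promoters. The range ran from 52.7% to 75% GC among the member promoters.

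H3K4me1 was found in all 3 libraries at 4 places near members, and these regions are shown because they are the ones that every H3K4me1 library held. Each line gives 200 bases of GRCm38 around the centre of the stretch that the 3 peaks share.
Irf4 upstream region, chr13:30727895-30728094, plus strand: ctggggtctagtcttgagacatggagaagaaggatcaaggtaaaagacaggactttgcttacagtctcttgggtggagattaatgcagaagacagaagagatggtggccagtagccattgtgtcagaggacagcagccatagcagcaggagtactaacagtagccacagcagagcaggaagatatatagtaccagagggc
Irf8 gene body region, chr8:120747136-120747335, plus strand: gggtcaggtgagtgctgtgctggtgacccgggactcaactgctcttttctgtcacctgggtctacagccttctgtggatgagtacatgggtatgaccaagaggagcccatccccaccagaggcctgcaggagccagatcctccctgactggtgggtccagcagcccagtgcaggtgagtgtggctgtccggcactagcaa
Irf2 intron region, chr8:46789355-46789554, plus strand: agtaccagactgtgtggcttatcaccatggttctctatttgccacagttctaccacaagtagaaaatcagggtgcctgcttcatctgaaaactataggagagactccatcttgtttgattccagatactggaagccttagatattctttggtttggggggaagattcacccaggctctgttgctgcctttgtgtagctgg
Phrf1 region in the Irf7 window, chr7:141230106-141230305, plus strand: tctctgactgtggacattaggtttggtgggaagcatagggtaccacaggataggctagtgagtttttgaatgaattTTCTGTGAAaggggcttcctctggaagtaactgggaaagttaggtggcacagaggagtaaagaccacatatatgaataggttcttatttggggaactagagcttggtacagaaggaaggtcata
The capitals mark a gamma-activated site match in the Phrf1 region. None of the 4 sequences matched an IRF motif, and over the 1845 regions found in 3 of 3 H3K4me1 libraries across the genome, 26.8% held an IRF core, 3.96% a composite core and 4.88% a gamma-activated site in the same 200 bases.

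The peak lists set the precision of all that follows. The H3K4me1 lists held 11922 to 24136 narrow peaks covering 3.53 to 7.91 Mb, and the H3K4me3 lists held 41936 to 46707 broad peaks covering 49.4 to 60.2 Mb. Read totals are not part of these lists. The fold enrichment and p-value of every H3K4me1 peak could be matched within 0.002 by a whole number of fragments at its summit over a Poisson background, and for peaks near members this number had a median of 6 in each library and a range of 4 to 14. An H3K4me1 peak near an IRF gene therefore rested on few fragments. H3K4me1 replicate 1 had the most peaks, 24136 against 13923 and 11922 in replicates 2 and 3. Marker genes were checked for the sorted cell type: all 5 B cell and all 6 GC B cell markers had a promoter H3K4me3 peak in 3 of 3 libraries, as did both light zone markers, Cd86 and Cd83, and 0 of 4 T cell markers. The same held for 2 of 4 myeloid, 3 of 3 plasma cell and 2 of 3 erythroid markers. Of all protein-coding genes, 56.2% had such a peak in 3 of 3 libraries.

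To examine the promoters, peaks within 5 kb of an annotated transcription start site (TSS) of a protein-coding transcript were assigned to the gene. All 8 members had a promoter H3K4me3 peak in 3 of 3 libraries, against 56.2% of all protein-coding genes. All 8 also had a TSS lying inside an H3K4me3 peak in 3 of 3 libraries, against 38.4% of genes. The exceptions were individual start sites. The internal TSS of Irf2, at chr8:46793499-46793499, was inside an H3K4me3 peak in 1 library only. At Irf5 both upstream start sites were inside a peak in 2 libraries, and the downstream site in 3.

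The width of the promoter H3K4me3 peak separated the members. At Irf8 the widest promoter peak measured 14306, 9023 and 13000 bp in replicates 1, 2 and 3, and no library of another member reached the lowest of these. The mean of 12110 bp lay at the 99.9th percentile of the 12286 genes with a promoter H3K4me3 peak in every library, whose median was 1901 bp. From the first TSS of Irf8 the peak ran 906 to 1529 bp upstream in replicates 2 and 1 and 631 bp in replicate 3, but 8116 to 12776 bp downstream, so nearly all of its width lay over the transcribed side. Irf2 followed with a mean of 5305 bp (SD 2004, n = 3), then Irf4 with 4664 bp (SD 511), Irf5 with 4175 bp (SD 767) and Irf1 with 3407 bp (SD 737). The ranges of these 4 overlapped between neighbours in the order. The Irf2 mean joins peaks of different start sites. Its widest peak lay over the first TSS in replicates 1 and 2 (6385 and 6537 bp). In replicate 3 it lay at the internal TSS (2993 bp), and the peak over the first TSS measured 2237 bp. Irf3 (2736 bp), Irf7 (2161 bp) and Irf9 (1879 bp) had the narrowest peaks, each below the lowest library of Irf1.

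**Figure D1:**
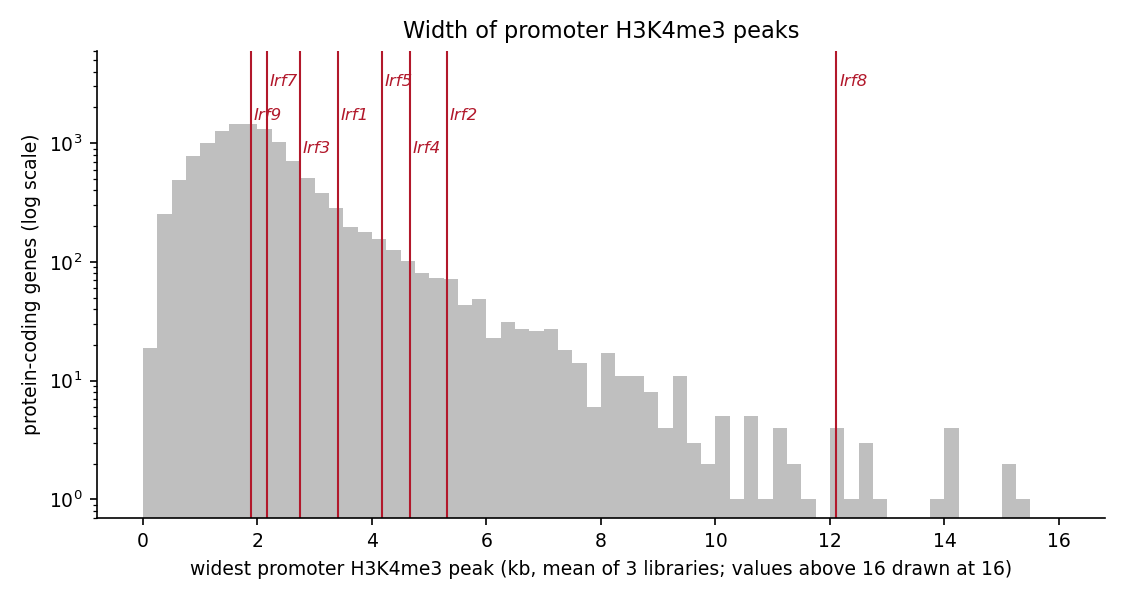
Widest promoter H3K4me3 peak of each protein-coding gene with such a peak in 3 of 3 libraries (x axis, kb, mean of 3 libraries) against the number of genes (y axis, log scale), with the IRF genes as vertical lines. Irf8 stands apart at 12110 bp, while Irf9, Irf7 and Irf3 lie within the bulk of the distribution.

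Width and enrichment ordered the members differently. Irf3 had the strongest promoter peak, with a fold enrichment over local background of 13.6, 11.1 and 10.2 in the 3 libraries, in a peak of 2686 to 2798 bp. Its TSS lies 69 bp from that of Bcl2l12, an apoptosis-related gene on the opposite strand, and the peak covered both starts, so the mark cannot be assigned to either gene. At Irf8 the fold was 6.16, 5.31 and 5.56, below each library of Irf3 although the peak was over 3 times as wide in every library. Irf1 had the lowest mean, from values of 4.69, 5.7 and 4.62. In broad lists the fold is an average over the peak, so a wide peak and a narrow peak are not compared at their summits.

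H3K4me1 at the promoters was sparse. Every member had a promoter H3K4me1 peak in at least 1 library, against 35.7% of protein-coding genes. Only Irf2 had such a peak in 3 of 3 libraries, 1 of 8 members against 6.17% of genes. Irf1, Irf3, Irf4, Irf5 and Irf8 had promoter peaks in 2 libraries, and Irf7 and Irf9 in replicate 1 alone. Without H3K4me1 replicate 2, the count of members with a promoter peak in every remaining library was 5, and without replicate 3 it was 2. No H3K4me1 peak covered a TSS of any member, apart from a 413 bp peak over the internal TSS of Irf2 in replicate 1. At Irf1 the peaks of replicates 1 and 3 were centred 1.1 and 1.26 kb upstream of the TSS, inside the upstream part of the H3K4me3 peak of the same replicate number. At Irf9 the only promoter peak, in replicate 1, ended 5 bp before the first TSS.

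Away from the promoters the members split. An H3K4me1 peak in the gene body or 5 to 50 kb from the TSS was present in 3 of 3 libraries at 4 of 8 members, Irf2, Irf4, Irf7 and Irf8, against 26.5% of genes. At Irf1, Irf3 and Irf5 such a peak was seen in 1 library, and at Irf9 in 2. For Irf7 all outlying peaks but 1 lay within 5 kb of the TSS of a neighbouring gene, Phrf1, Cdhr5 or Sct, and at Irf9 all of them did, in a window that holds the starts of 11 other protein-coding genes. Outlying peaks near another gene's TSS were then set aside, for the members only, so no share over all genes is at hand. By this count 3 members remained, Irf2, Irf4 and Irf8. The windows of these 3 hold no TSS of another protein-coding gene. For H3K4me3, all 8 members had a peak in the body or 5 to 50 kb away in 3 of 3 libraries, against 67.1% of genes.

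The amount of each mark was compared as the share of a gene's window under peaks, the window being the gene and 50 kb on either side of its start sites. For H3K4me1, Irf8 had 5.32%, 1.5% and 1.98% of its window covered in replicates 1, 2 and 3. Irf2 had 4.76%, 1.85% and 1.39%, and Irf4 had 3.83%, 1.86% and 1.46%. The 3 genes overlapped one another, and in each of them replicate 1 was the highest library. The other 5 members had means of 0.905% (Irf7), 0.786% (Irf9), 0.431% (Irf1), 0.386% (Irf3) and 0.373% (Irf5), and Irf1, Irf5 and Irf9 had no H3K4me1 peak at all in replicate 2. In every library each of Irf2, Irf4 and Irf8 lay above each of the other 5 members. The gap between the lowest mean of the 3 and the highest mean of the other 5 was 1.48 percentage points, and it was 0.869 without replicate 1.

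For H3K4me3, Irf8 had 42.9%, 41.4% and 34% of its window covered, the 99.9th percentile of protein-coding genes. Irf2 followed with 22.9%, 20.2% and 20.5% and Irf4 with 19.2%, 19.3% and 21.2%, and these 2 overlapped. Irf9 had 15.4% to 17%, below every library of Irf4, in its crowded window where all 7 or 8 outlying peaks lay near the start of another gene. Irf3 (mean 10.8%), Irf1 (10.5%), Irf7 (9.39%) and Irf5 (9.18%) could not be separated from their neighbours in this order. The median over the members was 13.5%, against 3.25% over all protein-coding genes and 6.12% over those with a promoter H3K4me3 peak in every library. For H3K4me1 these medians were 0.846%, 0.159% and 0.392%.

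**Figure D2:**
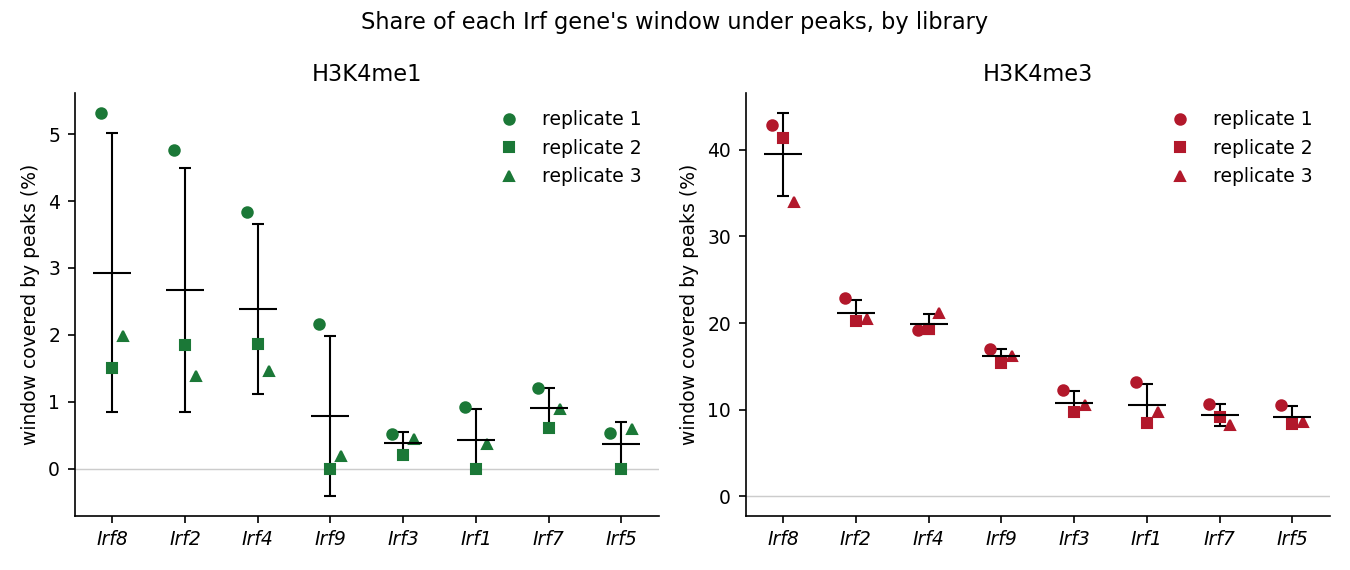
Share of each gene's window under H3K4me1 peaks (left, %) and H3K4me3 peaks (right, %; different scale), with a symbol for each library and the mean with its SD over 3 libraries in black. Irf8, Irf2 and Irf4 lie above the other members in every H3K4me1 library, and Irf8 lies alone at 34% to 42.9% for H3K4me3.

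The lead of Irf8 in H3K4me3 changed when peaks were chosen by their p- or q-value. A broad peak carries the mean of these values along its length, not that of its summit, so wide and narrow peaks are not ranked alike, and the part of this in the change was not tested. When only peaks with a −log10 q-value of at least 5 were kept, Irf8 had 17.4% of its window covered (13.2% to 21.2%) and Irf9 14.1% (11.6% to 16.5%), and their ranges overlapped. Among the 10000 best peaks of each library, Irf8 had 2.71% and no promoter H3K4me3 peak in any library, whereas Irf9 had 12.3%. The wide Irf8 promoter peak carried a −log10 q-value of 7.07, 5.41 and 5.85, and that of Irf3 25.5, 18.5 and 16.4. Irf2, Irf4 and Irf8 kept a larger mean H3K4me1 share than the 5 lower members at both thresholds. With −log10 q of at least 5 it was 0.864% at Irf8, 0.579% at Irf4 and 0.434% at Irf2, against at most 0.257% (Irf7). The Irf7 range at that threshold, 0% to 0.525%, overlapped the range of each. Among the 10000 best peaks Irf4 and Irf2 had 1.52% and 1.45%, against at most 0.561% (Irf7). Irf8 had 1.07% there, with none in 1 library.

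**Figure D3:**
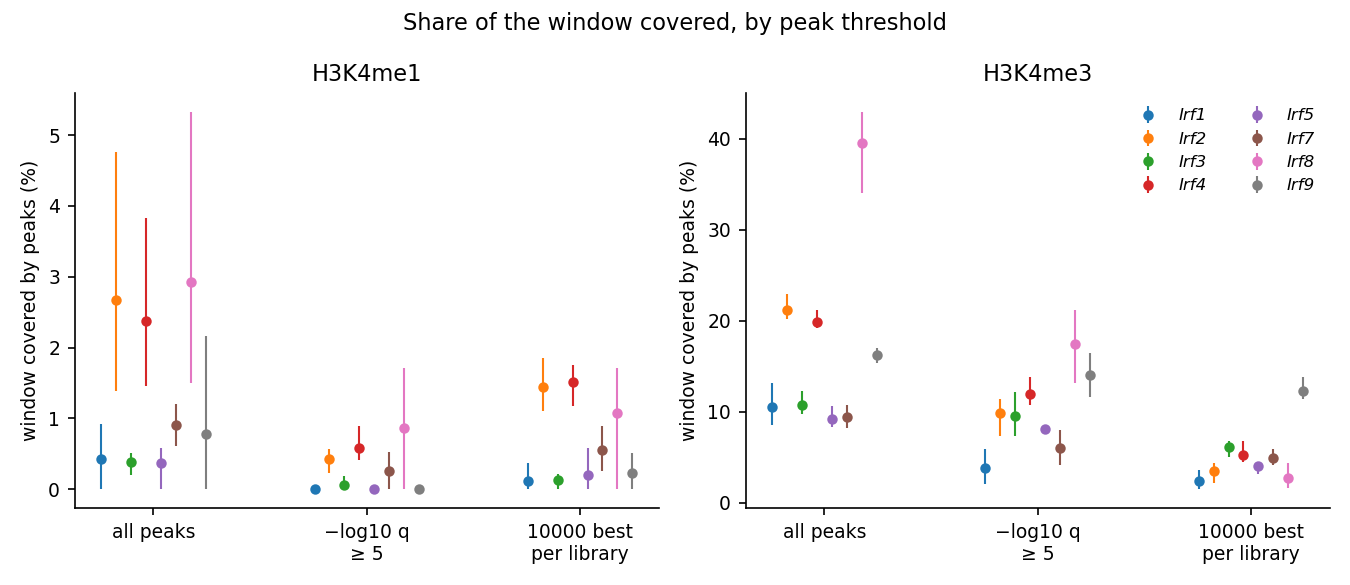
Share of the window covered (y axis, %) for H3K4me1 (left) and H3K4me3 (right) with all deposited peaks, with peaks of −log10 q at least 5 and with the 10000 best peaks of each library; points are means and bars run from the lowest to the highest of 3 libraries. Irf8 drops from 39.5% to 2.71% for H3K4me3, and Irf9 from 16.2% to 12.3%.

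In each member the H3K4me3 lists covered more of the window than the H3K4me1 lists. The covered length was 40.4 ± 4.89 kb of H3K4me3 against 3 ± 2.13 kb of H3K4me1 at Irf8 (SD, n = 3), and 33.4 ± 2.29 against 4.21 ± 2.88 kb at Irf2. It was 19.9 ± 1.11 against 2.38 ± 1.27 kb at Irf4. At the other 5 members H3K4me3 covered 9.39 to 16.4 kb and H3K4me1 0.383 to 0.906 kb. In none of the 8 members did an H3K4me1 library reach an H3K4me3 library. The exact two-sided permutation test gave p = 0.1 in each, the smallest value that 3 libraries against 3 allow, so none of the 8 tests could pass 0.05. With the 10000 best peaks of each library the Irf8 libraries did overlap: the difference was 1.68 kb in place of 37.4 kb, with p = 0.2 in the same exact test, and that at Irf2 was 3.28 kb in place of 29.2 kb. The ratio of H3K4me3 to H3K4me1 was 7.95 at Irf2, 8.36 at Irf4, 10.4 at Irf7, 13.5 at Irf8 and 20.6 at Irf9, and 24.3 to 28.1 at Irf1, Irf5 and Irf3. The order of the highest ratios changed with the H3K4me1 libraries used, a check chosen after seeing the data. Without H3K4me1 replicate 1 the ratio was 13.1 at Irf2, 22.7 at Irf8, 57.3 at Irf1 and 171 at Irf9, against 33.8 at Irf3. Without H3K4me1 replicate 2 it was 16.2 at Irf1, 16.4 at Irf5, 13.8 at Irf9 and 22.7 at Irf3, and without replicate 3 it was 34.6 at Irf5 and 30.0 at Irf3. Over the genome the lists covered 53.4 Mb against 5.26 Mb on average, a ratio of 10.2. The marks also differ in the way peaks were called, broad for H3K4me3 and narrow for H3K4me1, and the part of the mark and that of the calling cannot be told apart.

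Irf8, on the plus strand at chr8:120736358-120756694, held the most continuous H3K4me3. Merging the libraries gave a region of 16051 bp from chr8:120734829-120750879 over both start sites and a second of 17453 bp from chr8:120751652-120769104, which covers the end of the gene and runs on beyond it. Upstream, 5 further regions lay 10.8 to 35.29 kb before the TSS, each present in 3 libraries. H3K4me1 peaks numbered 17, 6 and 7 in the libraries and made 25 regions, of which 21 overlapped an H3K4me3 region found in at least 2 libraries. The H3K4me1 region found in every library lay 8.55 kb downstream of the nearer TSS, at chr8:120747040-120747348, overlapped an Irf8 exon and had folds of 4.21, 4.5 and 4.39. The 3 regions in 2 libraries lay 35.22 and 30.59 kb upstream and 26.91 kb downstream of the nearer TSS. The read-through gene model Gm20388 spans the whole locus.

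Irf4, on the plus strand at chr13:30749226-30766976, had H3K4me3 at the promoter, in the gene body and in a separate upstream array. The promoter region measured 5305 bp. Gene body regions measured 3235 and 2301 bp, each in 3 libraries, and 694 bp in 2 libraries. Between 33.42 and 12.51 kb upstream lay 5 regions in at least 2 libraries, the largest of 6927 bp at chr13:30723718-30730644, and none is within 5 kb of another protein-coding TSS. The H3K4me1 region present in every library, at chr13:30727848-30728326, lay inside this largest region, 21.14 kb upstream of the TSS in intergenic sequence, with folds of 5.49, 7.5 and 7.31. A region 28.62 kb downstream, in 2 libraries, was the only H3K4me1 region found in at least 2 libraries near any member that did not overlap H3K4me3. H3K4me1 peaks numbered 11, 7 and 5.

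**Figure D4:**
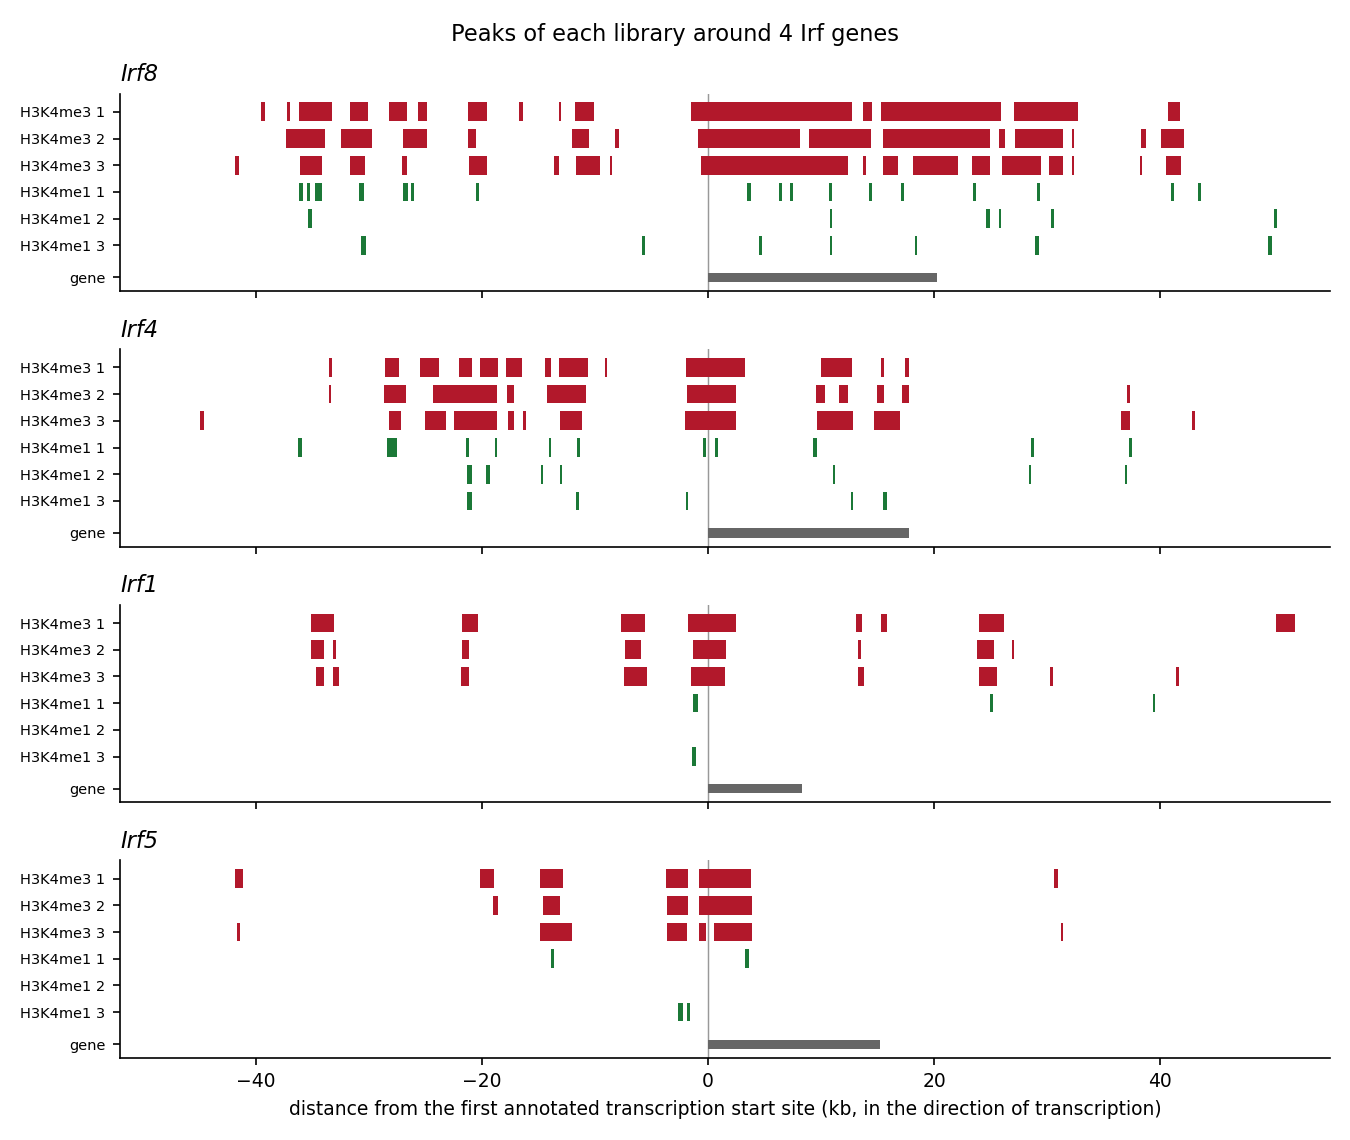
Peaks of each library around Irf8, Irf4, Irf1 and Irf5, drawn to scale by distance from the first annotated TSS (x axis, kb, in the direction of transcription), with H3K4me3 in red, H3K4me1 in green and the gene as a grey bar; numbers on the y axis are replicates. H3K4me3 lies upstream and over the gene at both Irf8 and Irf4, in longer stretches over Irf8. Irf1 and Irf5 have no H3K4me1 peak in replicate 2.

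Irf2, on the plus strand at chr8:46739732-46847458, is the longest member at 108 kb, and it had the most H3K4me1 peaks, 21, 10 and 8. Most lay inside the gene. Of its 6 H3K4me1 regions in at least 2 libraries, 3 clustered within 5 kb of the internal TSS and another lay 2.11 kb past the first TSS. The region in every library, at chr8:46788706-46789719, was intronic, 4.29 kb upstream of the internal TSS and 49.48 kb into the gene. It had folds of 3.8, 5.25 and 6.84. Merging the libraries gave an H3K4me3 region of 11871 bp from chr8:46793298-46805168, made of separate peaks of 1838 to 6148 bp. It lay downstream of this internal start and covered it in 1 library only. Another merged region of 11592 bp lay over the 3′ end of the gene, from chr8:46841473-46853064. All 12 H3K4me3 regions in at least 2 libraries were present in 3, and 5 of them lay 22.59 to 43.23 kb upstream of the first TSS.

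The other 5 members had fewer H3K4me1 peaks than Irf2, Irf4 and Irf8. Their means were 1.33 to 3.33 peaks per window, against a median of 0.667 over all protein-coding genes. Irf7 is on the minus strand at chr7:141262706-141266481, and its promoter H3K4me3 peak measured 1942 to 2360 bp with folds of 7.7 to 8.6. The H3K4me1 region found in every library of its window lay 36.17 kb downstream, at chr7:141230003-141230507 within Phrf1 and within 5 kb of the Phrf1 TSS, with folds of 7.72, 3.75 and 6.58. Irf3, at chr7:44997648-45002848, had 2, 1 and 2 H3K4me1 peaks, and those of replicate 3 lay near Cpt1c and Prmt1. Irf9, at chr14:55603571-55610030, starts within the end of Rnf31. It had 8, 0 and 1 H3K4me1 peaks, so its H3K4me1 rested on replicate 1. Irf5, at chr6:29526625-29541871, had 2, 0 and 2. Irf1, at chr11:53770014-53778374, had 3, 0 and 1, although the 7 H3K4me3 regions of its window found in at least 2 libraries were all found in 3.

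Across the family, H3K4me1 peaks fell into 104 regions, of which 16 were found in at least 2 libraries and 4 in all 3. Of the 16, 15 overlapped an H3K4me3 region found in at least 2 libraries, and over the genome this held for 94.4% of 8430 such H3K4me1 regions. H3K4me3 peaks fell into 97 regions, of which 65 were found in at least 2 libraries and 54 in all 3. With an H3K4me1 library left out, a region had to be in both remaining libraries, a stricter rule that can only lower the count. The count of 16 was then 5 without replicate 1, 9 without replicate 2 and 10 without replicate 3.

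The genes around the family in the interferon pathway were described from lists chosen by function. All 9 receptor and signalling genes carried promoter H3K4me3 in every library, and 4 carried promoter H3K4me1 in every library, against 56.2% and 6.17% of all protein-coding genes. The 4 were Jak1, the kinase shared by type I and type II receptors, with a mean of 15.7 H3K4me1 peaks in its window, the receptor chains Ifngr1 (6) and Ifnar1 (5.67), and Ifngr2 (3.67). Of 14 sensors and adaptors, 14 carried promoter H3K4me3 and 3 promoter H3K4me1 in every library, namely Tlr9 and Tlr3, receptors for DNA and double-stranded RNA, and Ddx58, which encodes RIG-I. All 13 interferon-stimulated genes matched in the annotation carried promoter H3K4me3 in every library, and none carried promoter H3K4me1 in every library, with a median promoter H3K4me3 width of 1450 bp.

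Partners and targets of IRF4 and IRF8 had the largest median promoter width among the pathway lists. In every library promoter H3K4me3 was found for all 8 and promoter H3K4me1 for 5, and their median promoter width was 6040 bp against 1901 bp over all genes with this mark. Pax5, the B cell identity factor, had a mean width of 15106 bp and 13.3 H3K4me1 peaks, and Ciita, the regulator of MHC class II genes, had 8190 bp and 10.7 peaks. Spib, an ETS partner, had 9709 bp and Bcl6, the GC repressor, had 9341 bp, each with 5 H3K4me1 peaks. Prdm1, the plasma cell regulator, had 2795 bp and 0.667 H3K4me1 peaks.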

How the data were processed

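Mint-ChIP was performed by the study on 50000 sorted cells per library, with chromatin cut by nuclease, barcoded, pooled for immunoprecipitation and amplified through RNA. The submitters' processing notes name BWA, Picard, HOMER and Genrich, without versions or roles, and the build mm10. The caller, its settings and the control are not given in the sources used here; the column layout is that of MACS2. Peaks were called by the authors in each library separately. In the deposited files the fold enrichment is a linear ratio of pileup to local background, with its −log10 p-value and, adjusted within the library, its −log10 q-value; broad H3K4me3 lists give peak averages of all these. The authors' score column, which repeats the −log10 q-value as a rounded multiple, was left unused. The lowest deposited −log10 q-value was 1.31 in H3K4me1 lists and 1.02 in H3K4me3 lists, so the thresholds differ between marks.

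Coordinates were read as GRCm38. No peak lay past a chromosome end (0) or on an unknown chromosome (0). The GENCODE M21 basic annotation gave 41451 TSSs of 21864 protein-coding genes. A peak belonged to a gene's promoter (within 5 kb of a TSS), else to its body, else to the outlying zone (5 to 50 kb). Regions are unions of peaks of a mark that share at least 1 bp. Marks were compared by exact permutation over 3 libraries against 3. The zone and length code was tested on simulated peaks. Libraries are separate samples by label, with no source for separate animals, so spreads may be technical. Depth in reads is unknown for these lists, and counting error alone is covered by the fragment numbers. Python 3.11.15, pandas 2.3.3 and scipy 1.17.1 were used. Promoter sequences came from RefSeq (GRCm38.p6), matched for 8 of 8 members.

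The members, gene lists and measures were chosen with earlier results of these data known. In each list the genes named were those with a promoter H3K4me1 peak in 3 of 3 libraries and those with no promoter H3K4me3, at most 4 by mean number of H3K4me1 peaks; Prdm1 was added after its values were seen. For each member the 2 genes most alike over 18 values could be named. Mx2 was not matched as a protein-coding gene, so 13 of 14 interferon-stimulated genes were used. A comparison of protein sequences was planned and is not analysed here. Alternatives were stricter peak thresholds, other distances, merging within 1 kb, other start sites and leaving out each library.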

Additional observations from a re-analysis of the deposited data

How the results depend on the processing

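Of 151 alternative values, 130 were counted as kept, 19 as moved and 2 as reversed. Kept meant the same direction and side of the threshold for tests, and nearness to the value reported for counts and gaps. The tests of the marks could not pass 0.05 in any setting, and the replicate block cannot change a difference. For the tests only a reversed sign could count as a change, so the 130 says little about the size of those differences. The difference between the marks kept its sign at all 8 members but not its size: at Irf8 it was 37.4 kb, 16.9 kb with −log10 q of at least 5 and 1.68 kb with the 10000 best peaks. The gap between the lowest of Irf2, Irf4 and Irf8 and the highest other member in H3K4me3 share, 3.67 percentage points, reversed to -4.2 with −log10 q of at least 5 and to -9.55 with the 10000 best peaks per library; it was 4.95 with peaks within 1 kb merged, 1.86 with a 25 kb window and 2.27 with a 100 kb window, and 3.04 to 4.42 when a library was left out. This gap and its alternatives were chosen after seeing the data. The same gap for H3K4me1, 1.48, was 0.177 with −log10 q of at least 5, 0.505 with the 10000 best peaks and 0.869 to 1.76 when a library was left out. With −log10 q of at least 5, 6 members kept promoter H3K4me3 and 6 a TSS inside such a peak in 3 of 3 libraries. Irf1 kept the promoter peak in 1 library and Irf9 in 2. At this threshold the members with promoter H3K4me1 in 3 of 3 libraries were 0 and those with body or outlying H3K4me1 were 1. The consensus H3K4me1 regions were 3 in place of 16. With the 10000 best peaks, 5 members kept promoter H3K4me3 and 5 a TSS inside such a peak in 3 of 3 libraries, and 7 consensus regions were left. With a promoter of 1 kb, 0 members had promoter H3K4me1 in 3 of 3, and with the TSSs of all transcripts 2 did, Irf2 and Irf8. Leaving out an H3K4me1 library gave 1 to 5 members with promoter H3K4me1 in every remaining library. It gave 5 to 10 consensus regions, which then had to be in both remaining libraries. Shares over all genes were not computed under these alternatives, and the cause of these shifts was not tested.

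The replicate numbers of the labels were examined as a pairing of the marks. Deviations from the mark mean correlated over genes at 0.0174, 0.00242 and -0.00731 for numbers 1, 2 and 3. For unequal numbers the values ran from -0.0138 to 0.0116. With few fragments under each H3K4me1 peak, values near these cannot tell whether libraries of equal number share a source. The replicate block, a sign-flip test over 3 pairs, leaves the differences unchanged by construction (37.4 kb at Irf8 and 8.49 kb at Irf7). It gave p = 0.25 by exact permutation, the smallest it allows. H3K4me1 peaks near members rested on 4 to 14 fragments at the summit; no such number was obtained for H3K4me3.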

Other observations

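Promoter H3K4me3 was also examined at the ligand genes of the pathway. Of 5 interferon ligand genes, 4 had no promoter H3K4me3 peak in any library, against 34.5% of all protein-coding genes: Ifnb1, Ifna4 and Ifne of the type I group, and Ifng, the type II interferon. Ifnk had a promoter peak in 3 of 3 libraries, with a mean width of 1961 bp, but no TSS of it lay inside a peak in any library. None of the 5 had a promoter H3K4me1 peak in any library, and 35.7% of all protein-coding genes had one in at least 1 library. The IRF2-binding corepressor genes Irf2bp1, Irf2bp2 and Irf2bpl all had promoter H3K4me3 in 3 of 3 libraries, against 56.2% of all protein-coding genes. A TSS lay inside an H3K4me3 peak in 2 libraries for Irf2bpl, but in 0 for Irf2bp1 and Irf2bp2. Irf2bp2 had promoter H3K4me1 in 3 of 3 libraries, against 6.17% of genes. Its widest promoter H3K4me3 peak had a mean width of 8289 bp.

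Likeness was measured as the distance between log2 covered lengths (plus 100 bp) in 3 zones and 6 libraries, 18 values for each gene, where 0 means equal profiles. The genes nearest to Irf8 were Pou2af1, a B cell coactivator (distance 3.6), and Tgfbr2, a TGF-beta receptor chain (3.71), and the nearest family member was Irf4 (4.16). Nearest to Irf2 was Blnk, the B cell linker of receptor signalling (2.4), and nearest to Irf4 was Pigv (2.76). Irf3 and Bcl2l12, which share a promoter, had a distance of 0, and Irf1 and Gm17334, which lies within the Irf1 body on the opposite strand, one of 0.144. Irf5 and Irf1 were 2.93 apart, the smallest distance between any 2 members. Genes with few peaks have few ways to differ, so distances are not comparable between members.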
